A study of Rattus norvegicus with 66 samples.

Results

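Transcripts of 40 genes that are active in dividing cells were followed in dorsal hippocampus of rat pups on postnatal day (PND) 6. The genes were matched by their symbol to the 37777 gene rows of the count files, and all 40 were found. They comprised 16 genes of the G1/S transition and S phase and 24 genes of G2 phase and mitosis. All 40 passed the filter on low counts in every comparison, and the lowest count in any pup was 17, for Gins2.

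The 64 Long Evans pups, 41 males and 23 females of 44 litters, belonged to 13 groups and gave 66 RNA-seq libraries. Dams were exposed to Aroclor 1254 (Aro, a mixture of polychlorinated biphenyls) or bisphenol A (BPA, a plasticizer monomer) in soy-free chow from before mating until PND 6, or to chlorpyrifos (CPF, an organophosphate insecticide) by subcutaneous injection during gestation and again after birth. Feeding controls (CONF) were given the soy-free chow without an added chemical, and injection controls (CONSC) were given vehicle, which the labels name as saline and the methods as dimethyl sulfoxide. The diet of the injected dams is not given in the sources used here. Some neocortical tissue from beside the hippocampus was part of the dissected block.

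In males, the groups were CONF (n = 4), CONSC (n = 5), Aro0.5 (0.5 mg/kg, n = 4), BPA0.5 (0.5 mg/kg, n = 4), CPF1 (1 mg/kg, n = 4), Aro5 (5 mg/kg, n = 6), BPA5 (5 mg/kg, n = 7) and CPF3 (3 mg/kg, n = 7). Female groups held 5 CONF, 5 CONSC, 5 Aro5, 4 BPA5 and 4 CPF3 pups. Doses are daily doses of the dam per kg body weight, and the dose that reached a pup is not given in the labels. CONF and CONSC were combined within each sex, giving 9 male and 10 female control pups, and every treated group of a sex was set against these same controls.

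At PND 6 the rat dentate gyrus is still being built, and granule cell precursors, glial precursors and endothelial cells divide in the hippocampus. Before S phase, the MCM helicase is loaded on replication origins by Cdc6 and Cdt1, and the release of E2F factors from pocket proteins switches on genes of DNA replication. Genes of G2 phase and mitosis are switched on later, by B-MYB and FOXM1 together with the MuvB complex, and their transcripts are largely lost when cells leave the cycle. Their level in a whole tissue is therefore commonly read as a measure of cell division. In these bulk samples, however, fewer dividing cells and less RNA per dividing cell cannot be told apart.

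Short motifs known from promoters of both classes are shown here because the S phase and the G2/M genes are treated as separate classes throughout. RefSeq promoters of assembly GRCr8, from 250 bases before to 50 bases after the gene start, were matched to 31 of the 40 genes by symbol. Mcm4, Cdc6, Rrm2, E2f1, Ccne2, Ccna2, Foxm1, Aurkb and Tpx2 had no entry. Motifs were searched by letters on both strands: TTTCCCGC, TTTGGCGC and TTTCGCGC as E2F motifs, TTTGAA as the cell cycle homology region (CHR) and CCAAT as the CCAAT box. At least 1 E2F motif was found in 7 of 11 S phase and 1 of 20 G2/M promoters, against 1.724% of all 33469 promoters of the same length. TTTGAA was found in 1 of 11 S phase and 13 of 20 G2/M promoters, against 18.35% of all promoters. The CCAAT box was found in 7 of 11 and 15 of 20, against 37.49%. Both TTTGAA and CCAAT stood in 11 of the 31 promoters (35.48%), against 7.41% of all promoters. A match describes the letters in this window and is not a measured binding site.

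Below are 4 of these promoters, the 2 S phase and the 2 G2/M promoters with matches to the most motifs, read along the strand of the gene from 250 bases before to 25 bases after the start. Capitals mark the E2F, CHR and CCAAT motifs on either strand (CCAAT reads ATTGG and TTTCCCGC reads GCGGGAAA on the other strand). In Mcm5, TTTCGCGC and a TTTGGCGC on the other strand overlap, and in Mki67, TTTGAA and a CCAAT on the other strand overlap.
Mcm5 (helicase subunit), chr19:13488563-13488837, plus strand: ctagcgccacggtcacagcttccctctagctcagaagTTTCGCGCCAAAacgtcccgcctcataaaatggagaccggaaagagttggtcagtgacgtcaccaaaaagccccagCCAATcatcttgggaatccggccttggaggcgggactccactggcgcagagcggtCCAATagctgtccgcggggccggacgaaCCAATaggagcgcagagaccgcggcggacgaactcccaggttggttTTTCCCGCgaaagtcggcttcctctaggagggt
Mcm3 (helicase subunit), chr9:30733722-30733996, minus strand: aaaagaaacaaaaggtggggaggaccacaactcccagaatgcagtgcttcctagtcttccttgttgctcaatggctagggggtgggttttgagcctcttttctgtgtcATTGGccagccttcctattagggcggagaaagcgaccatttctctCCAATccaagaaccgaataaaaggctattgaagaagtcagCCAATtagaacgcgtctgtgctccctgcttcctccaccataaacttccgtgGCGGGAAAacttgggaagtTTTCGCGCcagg
Cdk1 (mitotic kinase), chr20:19265043-19265317, plus strand: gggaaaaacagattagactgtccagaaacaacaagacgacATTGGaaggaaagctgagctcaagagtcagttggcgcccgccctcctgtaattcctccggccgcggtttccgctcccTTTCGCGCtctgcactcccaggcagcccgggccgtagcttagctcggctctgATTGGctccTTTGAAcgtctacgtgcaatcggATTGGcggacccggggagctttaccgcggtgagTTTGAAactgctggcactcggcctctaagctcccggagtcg
Mki67 (Ki-67, chromosome surface protein), chr1:199952569-199952843, minus strand: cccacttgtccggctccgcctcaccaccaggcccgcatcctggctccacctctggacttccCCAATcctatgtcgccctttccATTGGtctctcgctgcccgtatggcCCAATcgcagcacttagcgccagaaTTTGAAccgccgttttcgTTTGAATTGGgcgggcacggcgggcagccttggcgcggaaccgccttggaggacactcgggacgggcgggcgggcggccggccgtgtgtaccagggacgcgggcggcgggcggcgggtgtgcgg

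Library totals had a median of 20740650 counts (10644138 to 86206550). Sex labels were checked on the Y-linked gene Kdm5d, and 0 libraries went against their label. Brains of 11 pups were collected outside the time window that the methods give, 10.30 to 13.20 h, among them 3 of 5 male CONSC pups. Titles of libraries were written in 2 forms, called A and B here, whose meaning the labels do not give. All 20 high-dose male libraries had form B and all 12 low-dose male libraries form A, and 9 of the 10 male control libraries were of form A, so that form and high dose cannot be told apart in males. In females, 5 control libraries had form A and 6 form B, and the titles of the 13 high-dose libraries could not be assigned to a form, so that its part in the female comparisons was not tested. The female CONF pup N4-3x and the male CONF pup N2-2y had a library of each form, and their counts were summed. The labels give the libraries of N4-3x different times of collection, whose mean was used. Over the 40 genes, the libraries of N4-3x differed by a median chi-square of 1.06 and those of N2-2y by 7.62, against a median of 2.34 between libraries of different pups of a group (140 pairs, 0.378 to 46.6). Both values lay inside the range of these pairs, and the libraries of N2-2y are given separately beside the sex difference. Female Aro5 and male Aro5 each held 2 pups of the same litter; all other pups of a group came from different litters.

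The group means of the 40 genes together ranged from 3.73 (female Aro5) to 3.90 (male BPA0.5). The level was expressed as the mean of their log2 CPM (counts per 1000000 counts after TMM scaling), each gene counted equally. In males this mean was 3.82 ± 0.07 in CONF, 3.83 ± 0.04 in CONSC, 3.76 ± 0.12 in Aro0.5, 3.90 ± 0.08 in BPA0.5, 3.77 ± 0.07 in CPF1, 3.79 ± 0.04 in Aro5, 3.86 ± 0.12 in BPA5 and 3.87 ± 0.13 in CPF3 (mean ± SD). In females it was 3.74 ± 0.06 in CONF, 3.76 ± 0.12 in CONSC, 3.73 ± 0.07 in Aro5, 3.74 ± 0.10 in BPA5 and 3.85 ± 0.25 in CPF3.

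Against the 9 male controls (3.83 ± 0.05, range 3.75 to 3.89), the difference was -0.04 in Aro5, 0.03 in BPA5, 0.04 in CPF3, -0.07 in Aro0.5, 0.07 in BPA0.5 and -0.06 in CPF1. The pooled SD of these comparisons ranged from 0.05 to 0.09, and the differences of Aro5, BPA5, CPF3 and Aro0.5 lay within it. Those of BPA0.5 and CPF1 slightly exceeded it (0.06 in both). In BPA0.5, 3 of 4 pups lay above the highest male control. With plain CPM on the library total, the BPA0.5 difference was 0.03 and 0 of 4 pups lay above the controls. The differences of Aro0.5 (-0.13) and Aro5 (-0.07) then exceeded their pooled SD (0.10 and 0.06), while that of CPF1 (-0.06) lay within it (0.08). Against the 10 female controls (3.75 ± 0.09, range 3.55 to 3.87), the difference was -0.02 in Aro5, -0.01 in BPA5 and 0.10 in CPF3, with pooled SD of 0.09, 0.09 and 0.15.

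Single pups ranged from 3.55 to 4.18 in the mean over the 40 genes. The 4 female CPF3 pups had means of 3.87 (35-3x), 4.18 (38-5x), 3.76 (43-3x) and 3.57 (45-6x). Pup 38-5x was the highest of all 64 pups, and only 8-2x, a female CONSC pup with 3.55, was lower than 45-6x, whose library was the deepest (86206550 counts). The brothers of the same litters were at 3.98 (35-5y), 3.99 (38-1y), 4.03 (43-6y) and 3.75 (45-1y) among male CPF3 pups, whose range was 3.75 to 4.03. Pup 8-2x also had the lowest level of all pups for Mki67, Cdk1, Pcna, Ndc80 and Bub1b.

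**Figure D1:**
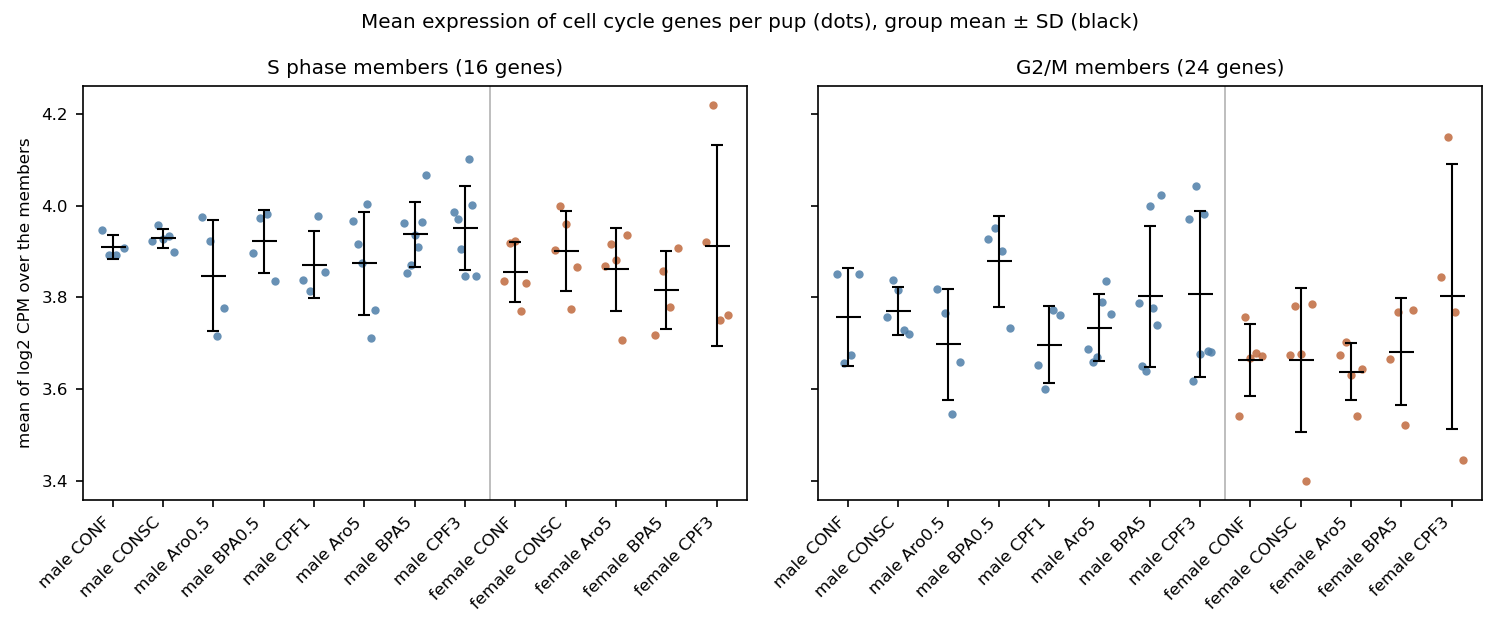
Mean log2 CPM (y axis) in each of the 64 pups (points) by group (x axis), with group mean and SD. The left panel holds the 16 S phase genes and the right panel the 24 G2/M genes. The groups overlap. The 4 female CPF3 pups spread from 3.75 to 4.22 (S phase) and from 3.45 to 4.15 (G2/M), the widest range of any group in each panel.

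Mki67, which encodes Ki-67, the usual histological marker of dividing cells, had 23.0, 31.1 and 35.7 CPM (lowest, median, highest) in male controls and 22.5, 29.3 and 32.7 CPM in female controls. Male medians were 30.8 in Aro5, 30.3 in BPA5, 32.7 in CPF3, 29.2 in Aro0.5, 33.3 in BPA0.5 and 29.1 in CPF1, all within the range of the controls. In female CPF3 pups Mki67 was at 37.0, 48.9, 27.6 and 23.1 CPM, with 2 pups above and 2 within the control range. The fitted log2 difference of Mki67 ranged from -0.09 (CPF1 males, 95% interval -0.30 to 0.12) to 0.23 (CPF3 females, -0.03 to 0.50) over the 9 treated groups.

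Top2a, the topoisomerase that untangles sister chromatids, followed the mean of the other genes most closely over the 64 pups (Pearson's r = 0.87). Its level was 28.9, 36.6 and 43.5 CPM in male controls and 26.8, 33.8 and 38.3 CPM in female controls. In Aro0.5 males it was at 32.9, 35.4, 29.2 and 31.2 CPM, below the male median but inside the control range. Female CPF3 pups had 38.0, 48.5, 33.4 and 25.0 CPM.

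Cdk1, the kinase that drives entry into mitosis, was at 16.2, 17.9 and 20.5 CPM in male controls and 11.8, 16.4 and 22.4 CPM in female controls. Its group means ranged from 17.8 ± 1.18 (Aro5) to 19.7 ± 2.67 CPM (CPF3) in males and from 14.6 ± 1.11 (Aro5) to 17.4 ± 4.05 CPM (CPF3) in females. These ranges overlap with those of the controls in each sex.

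Among the S phase genes, the helicase subunit Mcm2 was at 13.6, 17.3 and 18.6 CPM in male and 16.0, 17.3 and 19.1 CPM in female controls. The 6 Aro5 males had 10.6, 16.2 and 18.2 CPM (lowest, median, highest). The littermates 120-1y (11.0 CPM) and 120-2y (10.6 CPM) were below every male control, while the other 4 Aro5 males, at 15.3 to 18.2 CPM, were not. Pcna, the sliding clamp of the DNA polymerases, was at 62.2, 73.0 and 76.4 CPM in male and 49.6, 61.4 and 77.8 CPM in female controls. Ccne1 (cyclin E1, which drives the G1/S transition) had 13.5, 16.4 and 17.4 CPM in male controls, and 17.4, 17.9, 18.4 and 19.4 CPM in Aro0.5 males. The Aro0.5 pups lay at or above the highest control pup.

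**Figure D2:**
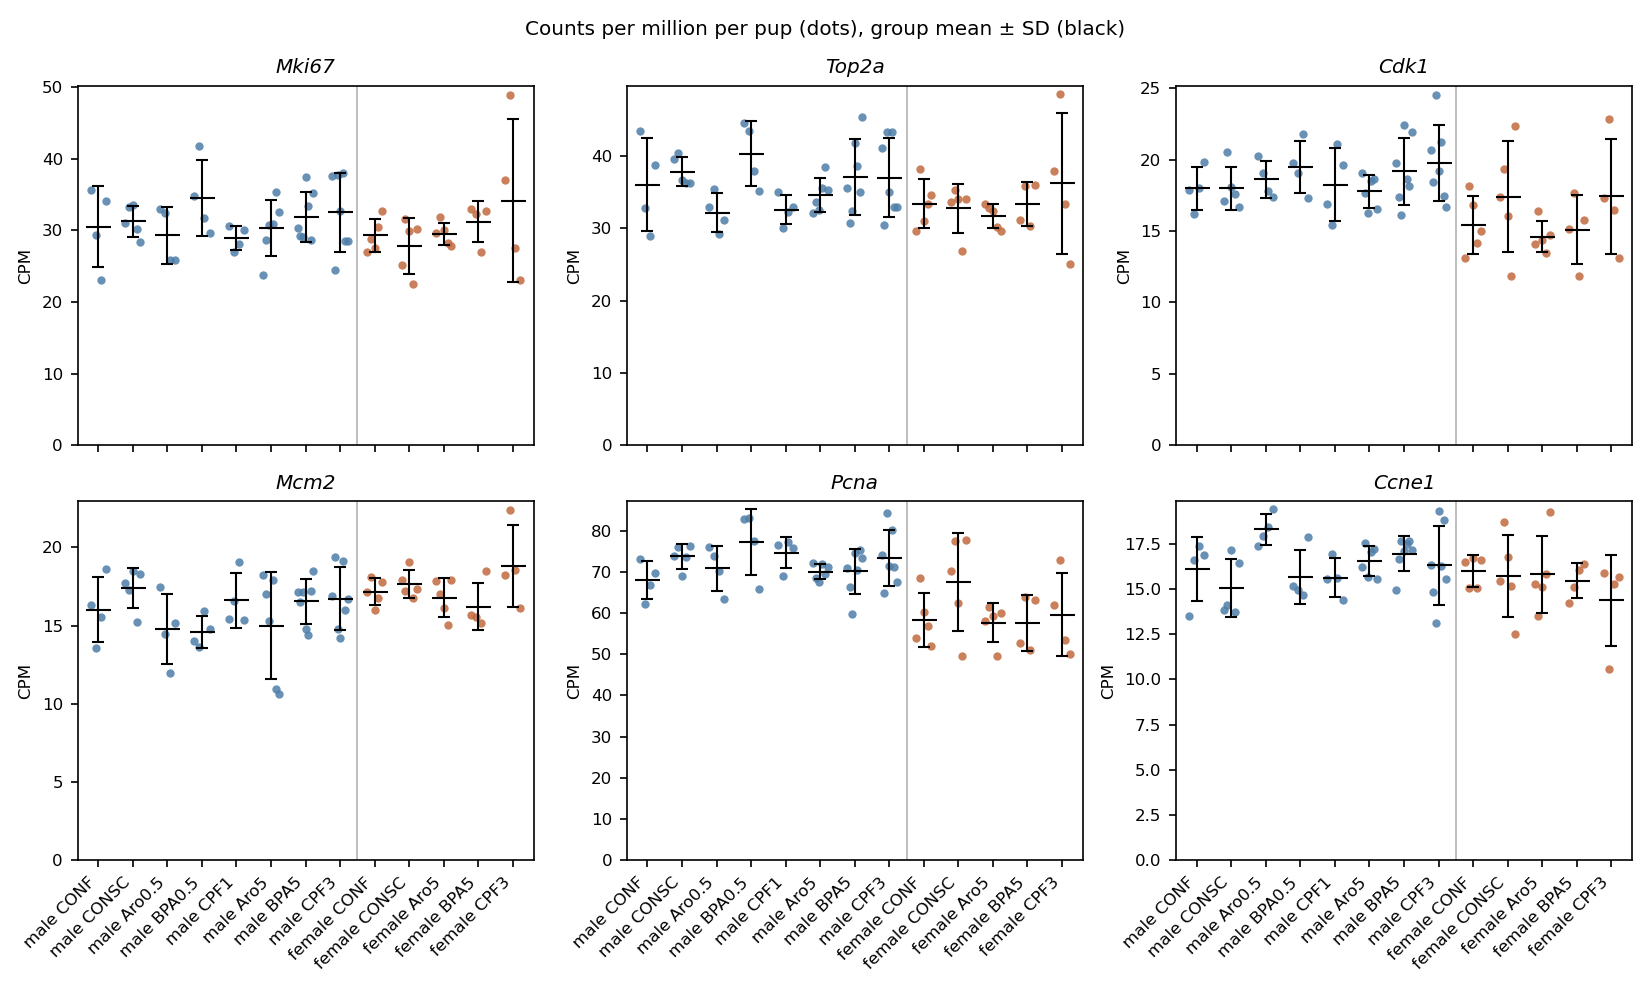
CPM (y axis, counts per 1000000 counts after TMM scaling) of Mki67, Top2a, Cdk1, Mcm2, Pcna and Ccne1 in each pup (points) of the 13 groups (x axis), with group mean and SD. Treated pups mostly lie within the range of control pups of their sex; the Mcm2 values of 10.6 and 11.0 CPM in Aro5 males belong to littermates.

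The question whether exposure changed expression was addressed gene by gene by edgeR's quasi-likelihood test over all genes, with Benjamini-Hochberg adjustment. In high-dose males, 0 of 40 cell cycle genes had an adjusted p under 0.05. Of all 16393 genes tested, 0.195% were called in Aro5, 0.189% in BPA5 and 0.159% in CPF3, so that a count of 0 among 40 genes is close to this background. DESeq2 also called 0 of 40 in each of these groups. At an unadjusted p under 0.05, edgeR counted 2 (Aro5), 3 (BPA5) and 1 (CPF3) and DESeq2 3, 4 and 1. By edgeR, 11.8%, 9.1% and 12.6% of all genes had such a p.

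The gene with the lowest p in Aro5 males was Mcm3, with a log2 difference of -0.24 ± 0.09 (SE) and an adjusted p of 0.299. Under other settings this difference ranged from -0.30 to -0.15. Mcm3 was at 12.1, 13.5 and 16.3 CPM in male controls and 9.00, 11.9 and 14.5 CPM in the 6 Aro5 males. Of the 6 pups, 4 lay below every male control, and the lowest were the littermates 120-1y and 120-2y (9.00 and 11.2 CPM). In BPA5 and CPF3 males, the lowest p belonged to Rrm1, the large subunit of ribonucleotide reductase, which supplies DNA precursors. Rrm1 was at 63.9, 66.8 and 71.8 CPM in male controls, at 56.2, 60.5 and 72.3 CPM in BPA5 and at 55.3, 61.9 and 72.8 CPM in CPF3. The log2 differences were -0.15 ± 0.06 (SE, adjusted p = 0.515) and -0.14 ± 0.06 (adjusted p = 0.379), and in Aro5 males -0.16 ± 0.07 (adjusted p = 0.316). These 3 comparisons share the control pups, and the treated libraries differ from nearly all of them in title form. With title form as a covariate, the differences of Rrm1 were -0.08 (BPA5), -0.07 (CPF3) and -0.09 (Aro5), and in control pup N2-2y the library of form B differed from that of form A by -0.26. Male controls had 1 library of form B, that of N2-2y, so that the values with the covariate rest on this pup.

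The sizes were bounded. The median log2 difference of the 40 genes was -0.05 (Aro5), 0.00 (BPA5) and 0.01 (CPF3), against 0.00, 0.01 and 0.00 for all genes. The 95% interval of each of the 40 genes lay within 1 log2 unit on either side of 0 in all 3 groups, and within 0.5 for 40, 39 and 38 genes. The extremes were Melk, a mitotic kinase of neural progenitors, with -0.24 in Aro5 (interval -0.49 to 0.01), Cdt1, the loading factor of the MCM helicase, with 0.28 in BPA5 (-0.11 to 0.68) and 0.30 in CPF3 (-0.10 to 0.69), and Aurkb, the kinase of the chromosomal passenger complex, with -0.25 in CPF3 (-0.51 to 0.01). Cdt1 had the widest intervals and also the largest SD between pups of a group (0.36 log2 units, against 0.13 for Mcm6 and Foxm1).

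By role, the median of the 9 licensing and firing genes was -0.11 in Aro5 males (2 of 9 positive), -0.01 in BPA5 and 0.02 in CPF3. The 11 G2/M kinases, cyclins and regulators had medians of -0.03, 0.06 and 0.11, with 4, 10 and 8 of 11 positive. The medians of the 6 kinetochore and checkpoint genes were -0.06, -0.03 and -0.02, and those of the 5 spindle genes -0.06, -0.06 and -0.01. None of these lists held a called gene by edgeR. In CPF3 males, 0 of 6 microglia markers (median -0.29, 3 at an unadjusted p under 0.05), 0 of 5 astrocyte markers (-0.18, 2 at such a p) and 0 of 5 red blood cell markers (-0.37, 1 at such a p) were positive. Their summed CPM was 48.2 to 87.8, 856 to 1389 and 298 to 964, against 56.1 to 106, 997 to 1360 and 451 to 958 in male controls. Markers of oligodendrocyte precursors (0 of 5 positive, median -0.12, 1 at such a p) and of choroid plexus and ependyma (1 of 5, -0.30) were mostly negative too. Those of hippocampal neurons went the other way (5 of 5 positive, median 0.20), as did 4 of 6 thalamus markers (median 0.09). In Aro5 males, 0 of 5 red blood cell markers (median -0.26) and 0 of 5 markers of oligodendrocyte precursors (-0.11) were positive. Medians were also negative for microglia (-0.18, 1 of 6 positive, 1 at such a p), choroid plexus and ependyma (-0.16, 1 of 5) and thalamus markers (-0.26, 2 of 6). Of the hippocampal neuron markers 4 of 5 were positive (median 0.01). The part of these cells in the values of the cell cycle genes was not tested.

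In low-dose males, edgeR called 0 of 40 genes in each group, against 0.124% of 16139 genes in Aro0.5, 0.0434% in BPA0.5 and 0% in CPF1. At an unadjusted p under 0.05 there were 6, 3 and 2 genes by edgeR, against 18.5%, 8.58% and 2% of all genes, and 7, 3 and 3 by DESeq2. The 6 of 40 genes in Aro0.5 are thus a smaller share than among all genes. DESeq2 called 1 gene in Aro0.5, Kif11 (0.897% of 27205 genes were called), and 0 in the other groups.

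Kif11, the motor that separates the spindle poles, was at 12.9, 15.1 and 17.5 CPM in male controls, and at 12.5, 13.6, 10.7 and 9.91 CPM in Aro0.5 males. Of the 4 Aro0.5 pups, 3 lay below every control pup. The log2 difference was -0.37 ± 0.10 (SE; adjusted p = 0.124 by edgeR and 0.0379 by DESeq2, with a range of 0.0379 to 0.450 over 31 fits, the first included). The others at an unadjusted p under 0.05 in Aro0.5 were Ccne1 (0.25 ± 0.09), the checkpoint kinase Bub1 (-0.25 ± 0.10), the thymidylate synthase gene Tyms (-0.27 ± 0.12), Top2a (-0.20 ± 0.09) and Mcm3 (-0.22 ± 0.10), with adjusted p of 0.161 to 0.248. Under other settings the difference of Mcm3 ranged from -0.22 to -0.13. In the same pups, 4 of 6 thalamus marker genes had an unadjusted p under 0.05, with a median log2 difference of 0.62, and the 5 choroid plexus and ependyma genes had a median of -0.34. Neither list held a called gene, and their part in the values of the cell cycle genes was not tested.

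In BPA0.5 males the lowest p belonged to Ccnb1, which encodes cyclin B1, the partner of Cdk1. It was at 12.8, 13.6 and 15.5 CPM in male controls and at 16.7, 15.4, 17.1 and 15.2 CPM in BPA0.5 males, with 2 pups above and 2 within the control range. Its log2 difference was 0.22 ± 0.08 (SE, adjusted p = 0.462). Cenpf, a kinetochore protein, had 0.19 and Mcm2 -0.21. The median over the 40 genes was 0.09 (all genes 0.00), and 32 of 40 were positive, with all 6 kinetochore genes among them (median 0.16). Without pup 72-4y the median over the 40 genes was 0.04, and without 75-1y it was 0.14. The licensing list had a median of 0.00, with 5 of 9 positive. In the same pups, the red blood cell genes had a median of 0.34 (5 of 5 positive, 2 at an unadjusted p under 0.05), the astrocyte genes 0.23 (4 of 5) and the neural progenitor genes 0.13 (6 of 7). Their summed CPM was 695 to 1037, 1329 to 1505 and 204 to 252, against 451 to 958, 997 to 1360 and 188 to 209 in male controls. None of these markers was called, and their part in the values of the cell cycle genes was not tested. In CPF1 males, Bub1 (8.78 to 12.3 CPM, against 11.6 to 14.4 in controls) had a log2 difference of -0.24 ± 0.11 (adjusted p = 0.997; -0.14 without pup 21-1y) and Kif11 -0.22 ± 0.11. The median was -0.07 in both Aro0.5 and CPF1 males. With a pup left out, that of Aro0.5 ranged from -0.13 (without 106-3y) to -0.03 (without 94-3y). That of CPF1 ranged from -0.10 (without 60-6y) to -0.04 (without 21-1y).

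In low-dose males too, each of the 40 intervals lay within 1 log2 unit of 0, and within 0.5 for 38 genes in Aro0.5, 36 in BPA0.5 and 40 in CPF1. Cdt1 in BPA0.5 had the lowest value of the 9 treated groups, -0.38, with an interval of -0.79 to 0.03. Low and high dose were not tested against each other, since the libraries of the low doses had form A and those of the high doses form B.

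In females, edgeR called 0 of 40 genes in Aro5, BPA5 and CPF3, against 0% of 16992 genes in each of the 3 groups, and DESeq2 called 0 of 40 as well. At an unadjusted p under 0.05 there were 0, 0 and 5 genes by both tools, against 3.23%, 4.08% and 8.79% of all genes by edgeR. In Aro5 females the lowest p was that of Kif11, at 11.9, 11.6, 11.3, 9.82 and 10.5 CPM against 11.1, 12.6 and 14.0 CPM in female controls (log2 difference -0.19 ± 0.11). In BPA5 females it was that of Rrm1, at 48.3, 51.9, 46.0 and 53.4 CPM against 48.0, 54.2 and 67.2 CPM (-0.18 ± 0.10). The groups overlapped in both cases. Medians over the 40 genes were -0.04 and -0.01. Choroid plexus and ependyma markers had medians of -0.28 in Aro5 and -0.54 in BPA5 females, with 0 of 5 positive in each group. At an unadjusted p under 0.05 there were 0 and 2 of these. Hippocampal neuron markers were positive in 3 and 5 of 5 (medians 0.06 and 0.18), and thalamus markers in 6 and 5 of 6 (0.05 and 0.32). None of these markers was called, and their part in the values of the cell cycle genes was not tested.

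In CPF3 females, the 5 genes were all of G2/M and all positive. Foxm1, the transcription factor of the G2/M genes, was at 22.5, 28.9, 36.4 and 24.2 CPM (35-3x, 38-5x, 43-3x, 45-6x), against 18.2, 21.4 and 23.6 CPM in female controls. Of the 4 pups, 3 lay above every control. Its log2 difference was 0.39 ± 0.09 (SE, interval 0.20 to 0.57), with an unadjusted p of 0.000212 and an adjusted p of 0.441. Without pup 43-3x, which was collected outside the time window, the difference was 0.23. Its brother 43-6y also had the highest Foxm1 of the CPF3 males, 29.6 CPM.

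The other 4 were the mitotic kinases Plk1 (0.34 ± 0.09) and Aurka (0.32 ± 0.11), the kinetochore gene Ndc80 (0.28 ± 0.11) and Ccna2 (0.26 ± 0.12), which encodes cyclin A2. Plk1 and Aurka were highest in pup 43-3x, and Ccna2 in 38-5x. Without 38-5x the difference of Ccna2 was 0.10 and that of Ndc80 0.18, and without 45-6x they were 0.42 and 0.41. The median over the 40 genes was 0.07 (all genes -0.01), with 30 of 40 positive, among them all 5 spindle genes. Without pup 38-5x the median was -0.05, and without 45-6x it was 0.17, so that its direction rested on single pups. In the same pups, 7 of 8 neural progenitor markers were positive (median 0.10, 1 at an unadjusted p under 0.05), and 0 of 6 microglia markers (median -0.22, 2 at an unadjusted p under 0.05). The summed CPM of the progenitor markers was 196 to 266 in CPF3 females and 173 to 269 in female controls, and that of the microglia markers 63.6 to 87.2 and 68.2 to 92.2. None of these markers was called, and their part in the values of the cell cycle genes was not tested. The interval of each gene lay within 1 log2 unit of 0 in all 3 female groups, and within 0.5 for 40, 39 and 35 genes.

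CONSC and CONF pups were compared to see whether injection and feeding controls could be combined. By edgeR, 0 of 40 genes were called in males (0.013% of 15387 genes) and 0 of 40 in females (0% of 16618 genes), and DESeq2 called 0 as well. At an unadjusted p under 0.05 there were 0 genes in males and 2 in females, Mcm7 (0.19 ± 0.08) and the cytokinesis motor Kif23 (-0.22 ± 0.10), by both tools, against 0.988% of all genes in males and 4.29% in females by edgeR. The log2 differences ranged from -0.12 (Mcm5) to 0.18 (Mcm7) in males and from -0.22 (Kif23) to 0.22 (Pcna) in females.

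Whether the effects of exposure differed between the sexes was tested by the interaction of sex and treatment. By edgeR 0 of 40 genes were called for Aro5 (0.0984% of 17282 genes), BPA5 (0.0405%) and CPF3 (0.0463%), and by DESeq2 0 of 40. At an unadjusted p under 0.05 there were 0, 0 and 3 genes by edgeR, against 8.92%, 2.79% and 5.6% of all genes, and 0, 0 and 2 by DESeq2. The 3 genes of CPF3 were Foxm1 (0.27 ± 0.11), Aurka (0.30 ± 0.14) and Ndc80 (0.27 ± 0.14), each with an adjusted p of 0.872. Without female pup 43-3x the value of Foxm1 was 0.11, and without 38-5x that of Ndc80 was 0.17. Intervals were wider here, and lay within 0.5 for 36, 33 and 27 of the 40 genes.

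Female control pups differed from male control pups in 13 of the 40 genes, 3 higher and 10 lower in females. Of all 17282 genes tested, 27.1% were called, so that the share among the 40 genes lay near the background. The median log2 difference was -0.15 (all genes -0.02), and 33 of 40 genes were negative. The median was -0.08 with libraries of form A only and -0.10 within the time window. The count fell to 7 without the male CONF pup N2-2y, to 7 without the female BPA5 pup 79-4x and to 8 without the female CPF3 pup 43-3x, the treated pups being part of the same fit. The share of all genes called without these pups is not given here, so that the fall is not set against the background. The mean over the 40 genes was lower by 0.08 log2 units, close to the pooled SD of 0.08, and 4 of 10 females lay below the lowest male. With plain CPM the difference was -0.14, with 7 of 10 females below.

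Higher in females were Cdt1, Plk1 and Birc5. Cdt1 was at 4.00, 4.98 and 6.13 CPM in male and at 5.43, 7.43 and 10.1 CPM in female controls, a log2 difference of 0.55 ± 0.15 (SE, adjusted p = 0.00550). Plk1, which acts at several steps of mitosis, was at 7.24, 8.60 and 10.7 CPM in males and at 9.76, 11.2 and 12.5 CPM in females (0.35 ± 0.10, adjusted p = 0.00504). Birc5 (survivin, of the chromosomal passenger complex) was at 5.07, 7.67 and 9.51 CPM in males and at 7.88, 9.40 and 11.8 CPM in females (0.35 ± 0.09, adjusted p = 0.00413). The ranges of the sexes overlapped for all 3 genes.

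Lower in females were 10 genes, 4 of S phase and 6 of G2/M. Rrm1 was at 63.9, 66.8 and 71.8 CPM in male and at 48.0, 54.2 and 67.2 CPM in female controls (-0.30 ± 0.07, adjusted p = 0.000723). Pcna was lower as well (-0.21 ± 0.07), as were the helicase subunit Mcm6 (-0.18 ± 0.06) and Ccne2, which encodes cyclin E2 (-0.28 ± 0.10). The checkpoint genes Ttk (-0.34 ± 0.10), Bub1b (-0.29 ± 0.10) and Bub1 (-0.24 ± 0.09), the cyclin gene Ccnb1 (-0.26 ± 0.08), the kinase gene Melk (-0.37 ± 0.11) and Kif11 (-0.31 ± 0.11) were the other called genes. All 6 kinetochore and checkpoint genes and all 5 spindle genes were negative, 3 and 1 of them called.

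The title form moved with these values. In the male pup N2-2y, the library of form B exceeded that of form A by 0.85 log2 units for Cdt1, 0.73 for Birc5 and 0.61 for Plk1, and was lower for 8 of the 10 genes lower in females (from -0.53 for Ttk to 0.18 for Mcm6). For the female pup N4-3x these 3 differences were -0.08, -0.02 and -0.16. Among female control libraries, form B against form A called 1 of the 40 genes (Pcna, -0.39, adjusted p = 0.0356), and 11 of 40 had an unadjusted p under 0.05, all of them lower in form B, against 18.7% of all genes in either direction. All 10 genes lower in females were negative, while Cdt1, Plk1 and Birc5 lay between -0.04 and 0.04. Of 16577 genes, 1.43% were called in this comparison, which was added after the data were seen. Both libraries of pup N4-3x were part of it, on opposite sides. Form A held 2 CONF and 3 CONSC libraries and form B 4 and 2, so that the forms also differed in the share of injected controls.

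With libraries of form A only, also added after the data were seen, 4 genes were called, all higher in females: Cdt1 (0.55), Birc5 (0.41), Plk1 (0.41) and Cdc20 (0.33), an activator of the anaphase-promoting complex. The 10 lower genes ranged there from -0.27 to -0.03, with adjusted p of 0.126 to 0.844, and 11.7% of all genes were called. With title form as a covariate, the differences of Cdt1, Plk1 and Birc5 lay between 0.31 and 0.48. They were called in all 63 fits of the sex contrast (the first fit, those with another setting and those with 1 pup left out), against 22 (Bub1) to 62 (Rrm1) for the others. The part of the title form in the sex difference cannot be told from these fits. Within the time window, 5 genes were called (Cdt1, Plk1, Birc5, Melk and Rrm1) and 20.5% of all genes, with only 2 of 5 male CONSC pups left. Sequencing runs of the libraries are not given in the labels, and their part in the sex difference was not tested.

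**Figure D3:**
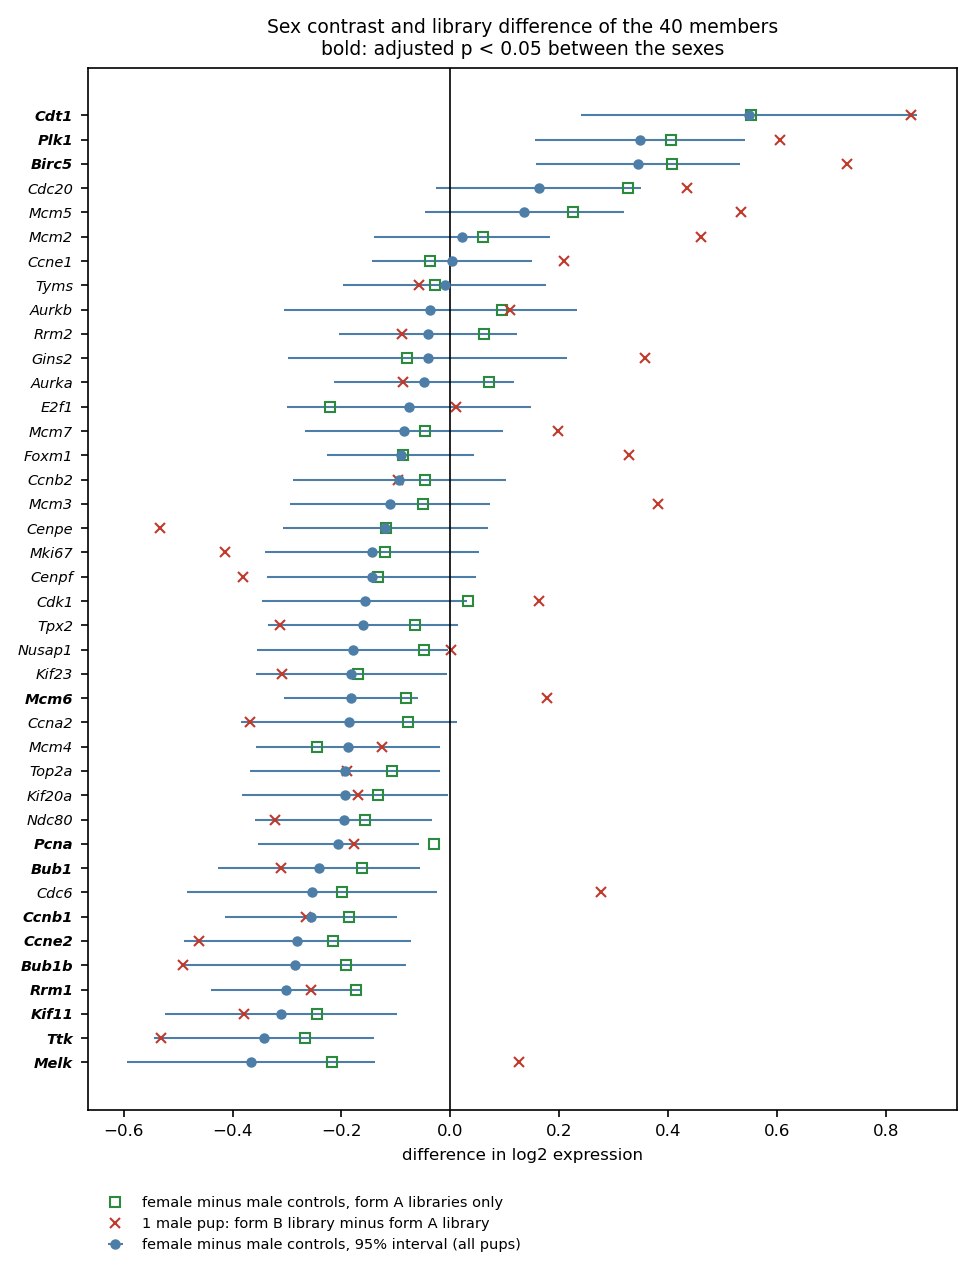
Log2 difference of female against male controls for the 40 genes (circles, with 95% intervals; bold names were called), with form A libraries only (squares) and, for comparison, the difference between the form B and form A libraries of the male pup N2-2y (crosses). For Cdt1, Birc5 and Plk1 the circles lie at 0.55, 0.35 and 0.35, and the crosses at 0.85, 0.73 and 0.61.

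Levels in treated pups are set beside these, by form, as a description. Median log2 CPM of Cdt1 was 2.17 in male control libraries of form A, 2.17 in low-dose males (form A), 2.57 in high-dose males (form B) and 2.69 in the form B library of N2-2y. In female controls it was 2.93 in form A and 2.88 in form B, and in high-dose females, whose libraries were not divided by form, 2.91. Birc5 had 2.86 in male controls of form A, 2.98 in low-dose males, 3.11 in high-dose males and 3.28 in the form B library of N2-2y.

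Other genes of the same pathway were taken from a list of 87 genes (G1 cyclins and kinases, CDK inhibitors, pocket proteins with other E2F factors and MuvB, other S phase genes and other mitotic genes), of which 86 were tested. By edgeR, 0 of 86 were called in each of the 9 treated groups. At an unadjusted p under 0.05 there were 4, 6 and 4 genes in Aro5, BPA5 and CPF3 males, 9, 8 and 3 in Aro0.5, BPA0.5 and CPF1 males, and 0, 2 and 17 in Aro5, BPA5 and CPF3 females. Of all genes, 11.8%, 9.1%, 12.6%, 18.5%, 8.58% and 2% had such a p in the male groups, in the same order. In the female groups the shares were 3.23%, 4.08% and 8.79%. The median in CPF3 females was 0.09, and 62 of 86 were positive.

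In the sex contrast, 14 of 86 were called, a smaller share than the 27.1% of all genes. Higher in females were Ccnd3 (0.36), which encodes cyclin D3, and Cenpa (0.56), the histone variant of centromeres. Lower were the replication genes Orc1 (-0.49), Orc6 (-0.20), Dtl (-0.37), Prim1 (-0.23), Rfc4 (-0.37) and Gmnn (-0.30), the regulators Cdkn2c (-0.28), E2f6 (-0.28) and Lin52 (-0.36), and the mitotic genes Kif4a (-0.35), Spc25 (-0.26) and Pbk (-0.31). Orc1 and Orc6 belong to the origin recognition complex, and Gmnn encodes geminin, the inhibitor of Cdt1. The median was -0.12, and 18 of 86 were positive.

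Marker genes of cell types that the tissue block could hold were read beside these results. By edgeR, 0 marker genes were called in any treated group (50 or 51 tested). In the sex contrast 9 of 51 were called, likewise a smaller share than the 27.1% of all genes, 8 of them higher in females, and the median of the 51 was 0.00. Of 8 neural progenitor genes, 2 were called, Hes5 (1.31) and Neurog2 (1.23), and 4 were positive (median 0.03). Only 7 of them passed the filter on low counts in the fits of males alone. Neurog2 had the fewest counts of this list (1 to 63 per pup), so that its call may depend on the filter and is given as a description. Of 5 oligodendrocyte precursor genes 4 were positive (median 0.24), Sox10 (0.57) and Olig1 (0.48) being called higher and Pdgfra (-0.22) lower in females. Of 5 hippocampal neuron genes 3 were positive (median 0.46, from -0.19 to 0.80), and 1 was called, higher in females. The lists of endothelium and mural cells, red blood cells, and choroid plexus and ependyma each held 1 called gene, also higher. Their medians were 0.01, 0.06 and -0.04. The summed CPM of the neural progenitor markers was 188 to 209 in male and 173 to 269 in female controls. That of the choroid plexus and ependyma markers was 1274 to 3783 and 1655 to 4482, that of oligodendrocyte precursors 312 to 391 and 361 to 457, and that of microglia 56.1 to 106 and 68.2 to 92.2. Hippocampal neuron markers summed to 315 to 508 and 131 to 597, endothelial and mural markers to 168 to 199 and 182 to 225, astrocyte markers to 997 to 1360 and 1011 to 1356, thalamus markers to 391 to 1166 and 370 to 965, and red blood cell markers to 451 to 958 and 613 to 1034. In the list of choroid plexus and ependyma, Otx2 had 0 to 3 counts per pup and Ttr 9729 to 145921, so that its sum weighs Ttr most. The ranges of the sexes overlapped for every list, and the part of these cells in the sex difference was not tested.

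Across pups, S phase and G2/M genes moved together in part. The means of both classes had a Pearson's r of 0.64 and a Spearman's rho of 0.58 over the 64 pups (0.56 without the 2 pups farthest from the median), and an r of 0.61 within groups. It was 0.77 in the 21 males of form A or with both forms, 0.36 in the 20 males of form B and 0.75 in the 23 females. Without the 2 farthest pups of each set, these values were 0.68, 0.38 and 0.49. These points share library size and scaling, so that the values are given as a description. Pairs of G2/M genes had a median r of 0.51 (276 pairs), pairs of S phase genes 0.22 (120 pairs, -0.62 to 0.86) and mixed pairs 0.25 (384 pairs).

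Single genes differed in how closely they followed the rest. After Top2a (0.87), the r with the mean of the other genes was 0.81 for Cdk1, 0.79 for Cenpf, 0.78 for Bub1b and Kif20a and 0.77 for Mki67. It was 0.73 for Mcm6 and 0.68 for Pcna among S phase genes. It was near 0 or below for Birc5 (0.04), Plk1 (-0.02), Cdt1 (-0.15) and Ccne1 (-0.33). In female CPF3 pup 38-5x, which had the highest mean, Ccne1 was lowest of all pups (10.6 CPM), while Mki67, Top2a, Cenpf, Bub1b and the helicase subunits Mcm2, Mcm3, Mcm5, Mcm6 and Mcm7 were highest of all pups.

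In the Aro5 males of litter 120, S phase genes were low relative to G2/M genes. Their S phase means were 3.71 and 3.77 and their G2/M means 3.84 and 3.76, giving differences of -0.12 and 0.01, against 0.20 to 0.28 in the other 4 Aro5 males. Their sister 120-3x had 0.29. Differences below 0 were also found in CPF3 pup 38-1y (-0.14), BPA5 pup 86-9y (-0.06) and BPA0.5 pup 69-4y (-0.03) among males and in CPF3 pup 43-3x (-0.02) among females. Bub1 was at 16.9 and 15.5 CPM in these brothers, above the male control range of 11.6 to 14.4 CPM, while Mcm2 was below it.

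**Figure D4:**
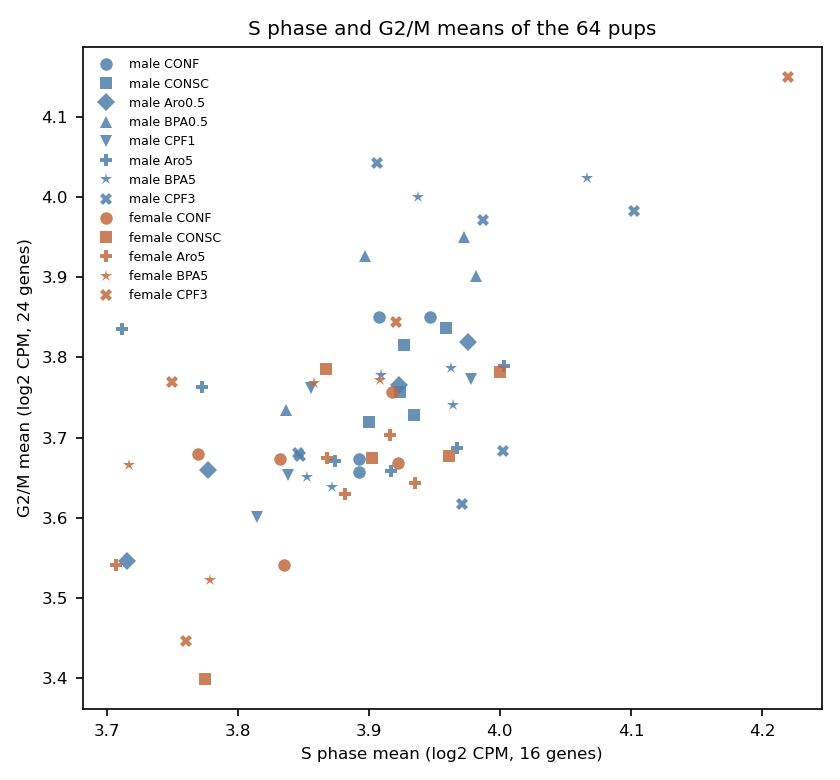
Mean log2 CPM of the 24 G2/M genes against that of the 16 S phase genes in each of the 64 pups (points by sex and group). The classes rise together (r = 0.64), with female CPF3 pup 38-5x at the upper end (4.22 and 4.15).

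The genes outside the list whose level followed the mean of the 40 genes most closely, among 14663 genes with a mean of at least 1 CPM, were Tacc3 (r = 0.79), Prc1 (0.78), Ezh2 (0.78), Kif4a (0.75), Nuf2 (0.75), Tmpo (0.74), LOC100912563 (0.73), Kif22 (0.72), Cdca2 (0.72) and LOC500700 (0.72). Of these 10 genes, 5 were in the list of other mitotic genes.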

How the data were processed

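RNA-seq libraries of dorsal hippocampus of 64 pups were used. Per the submitters' processing notes, the authors used STAR, featureCounts, kallisto and the rat build Rnor_6.0, and they deposited raw read counts per gene for each library. Versions, the strand setting and the treatment of multi-mapping reads are not given in the sources used here, so that values of genes with near-identical copies or overlapping genes are uncertain. From the deposited counts, CPM (counts per 1000000 counts, TMM-scaled, prior count 2 on the log2 scale) were computed here. Coordinates of genes on Rnor_6.0 were not used here.

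Counts of 2 libraries of a pup were summed (2 pups). Where several rows had the same symbol, the row with most counts was used. Groups were taken from the labels. Comparisons were fitted across all genes that passed filterByExpr, with edgeR 4.0.16 (quasi-likelihood F test, Benjamini-Hochberg adjustment, threshold 0.05) and limma 3.58.1 in R 4.3.3. High-dose males, low-dose males, females, CONSC against CONF in each sex, and both sexes with interactions were fitted separately. DESeq2 1.42.0 was an alternative. SE was the log2 difference divided by the square root of F. Pups are the replicates. In fits with title form as a covariate and in that of form B against form A, libraries were fitted singly. The test was two-sided and was tested on simulated data. Levels, correlations and promoter matches were obtained with scipy 1.17.1, pandas 2.3.3 and numpy 2.4.6 under Python 3.11.15 (plots: matplotlib 3.10.9).

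The 40 genes, the gene lists and the rules were chosen with earlier results of these data known. Genes given per pup were Mki67, Top2a, Cdk1, Mcm2, Pcna, Ccne1 and the gene with the lowest p in each treated group. Other genes named were called genes of the pathway list, the 10 genes most like the mean, and cell type markers. Any further gene, such as those at an unadjusted p under 0.05, was named after its values were seen. Promoters printed were those with matches to the most motifs. Ties were broken, after the matches were seen, by genes given per pup and then by the number of matches.

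Alternatives were DESeq2, its size factors in edgeR, a filter of 1 count in all or of 10 counts per pup, pups within the time window, form A libraries alone for pups with 2 libraries, 1 pup per litter and sex, title form as covariate, litter as block, fits of 2 groups alone, controls matched by route, plain CPM or a prior count of 0.5 for the mean, and each pup left out in turn.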

Additional observations from a re-analysis of the deposited data

Results flagged for a closer look

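In 13 of 195 combinations of a measure and a group of 4 to 7 pups, the highest or lowest pup stood further from the others than Dixon's 95% critical value, and chance gives about 1 in 20. The female CONSC pup 8-2x had a G2/M mean of 3.40 log2 CPM (nearest pup 3.67) and 26.8 CPM of Top2a (nearest 33.6). The female CPF3 pup 38-5x had 10.6 CPM of Ccne1 (nearest 15.3), although its mean over the 40 genes was the highest. In male CPF1 pup 21-1y, Pcna was at 69.0 CPM (nearest 75.9) and Bub1 at 8.78 CPM (nearest 11.8). The male CPF3 pup 43-6y had 29.6 CPM of Foxm1 (nearest 24.5), and the female CONSC pup 9-1x had 18.2 CPM (nearest 21.0).

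The other values of this kind were Mki67 at 26.9 CPM in female BPA5 pup 85-4x, Mcm2 at 18.5 CPM in female BPA5 pup 91-9x, Pcna at 49.7 CPM in female Aro5 pup 117-6x, Ccne1 at 17.9 CPM in male BPA0.5 pup 75-1y and at 14.9 CPM in male BPA5 pup 79-2y, and Bub1 at 13.8 CPM in female Aro5 pup 115-7x. Of these pups, 117-6x, 75-1y and 79-2y were collected outside the time window. Causes were not tested.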

How the results depend on the processing

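Treated and control comparisons gave 0 called genes of 40 under every alternative run, except for Aro0.5 males, where DESeq2 called 1 gene. In the sex contrast, where 13 genes were called, the count was 8 with no filter beyond 1 count, 5 within the time window, 7 with title form as a covariate and 4 with form A libraries only. With each pup left out in turn it ranged from 7 to 13, lowest without male CONF N2-2y or female BPA5 79-4x. With the litter as a replicate block, 12 genes were called in the sex contrast and 0 in the interactions (18 litters with 2 or more pups, consensus correlation -0.00610). The share of all genes called is given above for the fits within the time window and with form A libraries only. For the other fits it is not given here, so that their counts are not set against the background. The causes of these shifts were not tested. Of values for single genes, 33 lost and 1 gained significance under other settings, and 96 and 1 with a pup left out. No single gene followed in these settings changed sign. With a pup left out, the median log2 difference of the 40 genes, which was not tested, changed sign in BPA5 males (-0.02 to 0.04), CPF3 males (-0.02 to 0.04), Aro5 females (-0.06 to 0.01), BPA5 females (-0.05 to 0.01) and CPF3 females (-0.05 to 0.17), the first 3 also under another setting. Counts per pup limit Gins2 most, with 17 in 1 pup.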

Other observations

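The mean of the 40 genes was set beside other measures of the same pups, as a description. Its r with the summed CPM of the choroid plexus and ependyma markers was 0.48 (Spearman's rho 0.41, n = 64, 0.43 without the 2 farthest pups), with that of the neural progenitor markers 0.29, and with that of the microglia markers -0.30. The choroid plexus and ependyma sum weighs Ttr most, with 9729 to 145921 counts per pup against at most 2830 for any other gene of that list. Without the 2 farthest pups, the r with the neural progenitor markers was 0.21 and with the microglia markers -0.22. Its r with the hippocampal neuron markers was -0.23 (-0.34 without the 2 farthest pups), and with the other lists it lay between -0.23 and -0.04. Its r with total counts was -0.19 (-0.07 without the 2 farthest pups). Its r with the time of day of collection was -0.11 over all pups, and -0.50 (rho -0.60, n = 20) in high-dose males, against 0.14 in the other 21 males and 0.07 in females.

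In 18 litters with pups of both sexes, deviations from the group mean had an r between brothers and sisters of 0.36 for the mean of the 40 genes (0.47 without the 2 farthest litters), 0.49 for the G2/M genes (0.26) and -0.25 for the S phase genes (-0.04). The deviations had the same sign in 9 of 18 litters for the mean.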
